A study of Mus musculus with 3 samples.

Results

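Isl1 occupancy was examined at 10 genes of the vascular endothelial growth factor (Vegf) and platelet-derived growth factor (Pdgf) pathways. They were the Vegf ligands Vegfa, Vegfb and Vegfc, the Vegf receptors Kdr, Flt1 and Flt4, the Pdgf ligands Pdgfa and Pdgfb, and the Pdgf receptors Pdgfra and Pdgfrb. The genes were chosen by name, and a peak was counted for a gene when the deposited list gave that gene as its closest one. Of the 14082 distinct Isl1 peaks, 14 were assigned to 8 of the 10 genes, and Kdr and Pdgfrb had none.

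Isl1, a homeodomain transcription factor with LIM domains, marks progenitors of the heart, and its binding was mapped by ChIP-Seq, the sequencing of chromatin fragments that an antibody to the protein pulls down. Libraries were made from 2 Isl1 pulldowns, the replicates, and from 1 input, a portion of chromatin set aside before the antibody was added. All 3 came from cardiac progenitor cells (CPCs) collected on day 5 of directed differentiation of 1 mouse ES cell line, E14 Tg(Nkx2-5-EmGFP), whose EmGFP transgene is named for the early cardiac gene Nkx2-5. There was no genotype, treatment or time to compare, and every sample had been grown with VEGF at 5 ng/ml, first alongside Activin A and BMP4 and then alongside bFGF and FGF10. The single list combined both ChIP replicates and held positions without scores or read numbers, so the depth and the spread between replicates are unknown, and no test between samples was possible. A peak list measures occupancy and not expression, so the identity of the cells could not be checked against marker levels.

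Vegf and Pdgf ligands are secreted dimers that bring together receptor tyrosine kinases on neighbouring cells. Kdr carries the main Vegfa signal for endothelial growth, Flt1 also binds Vegfa and Vegfb and can act as a decoy, and Flt4 is the Vegfc receptor of lymphatic endothelium. Pdgfra and Pdgfrb receive Pdgf signals in mesenchymal and mural cells, and surface Kdr together with Pdgfra is widely used to recognise cardiac progenitors in differentiating ES cells.

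The sequences under the 14 peaks were divided into 2 kinds after the values were seen, and examples of each are shown. All were read from the mm9 genome assembly on the strand of the gene, 5′ to 3′, with CG dinucleotides and the homeodomain core TAAT (ATTA on the other strand) in capitals. The first set shows the CG-rich start regions of ligand and receptor genes. The Vegfa sequence (chr17:46168022-46168221) is the centre of an intronic peak, the Vegfb (chr19:7062142-7062341), Vegfc (chr8:55162686-55162885) and Flt1 (chr5:148537588-148537787) sequences lie just before the first transcription start site (TSS) and inside a peak, and the Pdgfb sequence (chr15:79842916-79843115) is the centre of its intronic peak.
Vegfa intron: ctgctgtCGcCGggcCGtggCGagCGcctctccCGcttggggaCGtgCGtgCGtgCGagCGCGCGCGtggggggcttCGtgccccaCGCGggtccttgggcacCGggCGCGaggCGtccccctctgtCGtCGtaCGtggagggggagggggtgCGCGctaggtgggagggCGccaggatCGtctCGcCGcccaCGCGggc
Vegfb upstream: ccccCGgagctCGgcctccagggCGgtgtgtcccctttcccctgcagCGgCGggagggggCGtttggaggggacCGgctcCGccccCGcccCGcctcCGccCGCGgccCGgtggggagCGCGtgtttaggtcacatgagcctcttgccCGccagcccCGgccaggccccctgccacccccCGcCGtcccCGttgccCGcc
Vegfc upstream: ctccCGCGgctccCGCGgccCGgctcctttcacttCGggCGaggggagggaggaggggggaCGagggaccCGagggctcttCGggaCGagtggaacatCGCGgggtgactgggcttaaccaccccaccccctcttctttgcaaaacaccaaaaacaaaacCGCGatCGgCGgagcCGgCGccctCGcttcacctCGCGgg
Flt1 upstream: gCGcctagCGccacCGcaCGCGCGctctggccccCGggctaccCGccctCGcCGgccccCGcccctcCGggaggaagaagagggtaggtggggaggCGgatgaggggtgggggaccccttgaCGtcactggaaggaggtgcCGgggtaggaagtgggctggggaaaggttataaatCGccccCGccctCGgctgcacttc
Pdgfb intron: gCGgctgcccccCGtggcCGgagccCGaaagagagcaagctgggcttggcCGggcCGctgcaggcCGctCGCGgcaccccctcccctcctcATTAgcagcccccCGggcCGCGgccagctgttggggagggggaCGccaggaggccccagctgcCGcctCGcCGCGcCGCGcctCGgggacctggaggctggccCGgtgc

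These 5 windows held 32, 22, 22, 18 and 21 CG dinucleotides in the order shown. The intronic Pdgfb window alone contained the homeodomain core, as ATTA. The Vegfa window held the string ACGTG, the core of the site bound by hypoxia-inducible factors, which are known regulators of Vegfa. No other member peak had ACGTG in its central 200 bp, and 8.41% of all peaks did. The share was 12.2% of peaks 1 to 10 kb from a TSS, the class of the Vegfa peak, and 13.4% within 1 kb. Binding of hypoxia-inducible factors there was not tested.

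The second set shows the centres of peaks at repeated sequence: a peak upstream of Vegfc (chr8:55118850-55119049), the only peak of Pdgfra (chr5:75553398-75553597) and a pair of peaks assigned to Pdgfa, downstream (chr5:139430996-139431195) and upstream (chr5:139528587-139528786) of the gene.
Vegfc upstream repeat: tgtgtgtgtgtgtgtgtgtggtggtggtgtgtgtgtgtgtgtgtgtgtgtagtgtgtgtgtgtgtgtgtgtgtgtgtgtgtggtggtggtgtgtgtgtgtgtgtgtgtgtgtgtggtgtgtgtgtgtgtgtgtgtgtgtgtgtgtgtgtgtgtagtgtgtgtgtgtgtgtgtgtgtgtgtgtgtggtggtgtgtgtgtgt
Pdgfra intron: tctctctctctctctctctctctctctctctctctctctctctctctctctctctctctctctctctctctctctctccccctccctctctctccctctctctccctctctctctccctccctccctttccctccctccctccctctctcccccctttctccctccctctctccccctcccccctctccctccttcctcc
Pdgfa downstream: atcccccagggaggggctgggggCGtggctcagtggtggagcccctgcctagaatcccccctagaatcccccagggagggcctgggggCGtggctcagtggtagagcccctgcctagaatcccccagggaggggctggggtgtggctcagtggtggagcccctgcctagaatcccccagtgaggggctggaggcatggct
Pdgfa upstream: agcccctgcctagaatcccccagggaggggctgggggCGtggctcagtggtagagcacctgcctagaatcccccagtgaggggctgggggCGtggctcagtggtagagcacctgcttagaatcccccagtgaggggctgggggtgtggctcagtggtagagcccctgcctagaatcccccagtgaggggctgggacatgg

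The Vegfc sequence consists mostly of GT pairs, and the Pdgfra sequence begins with a run of CT pairs and goes on as a less regular stretch of C and T. Neither holds a CG dinucleotide. The Pdgfa sequences each hold 2 CG dinucleotides and show stretches in common that recur within each window.

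Of the 10 genes, 8 had an assigned peak, beside 39.1% of the 21027 protein-coding genes (95% Wilson interval 38.4 to 39.7%, for counting error only). By the deposited distance from peak midpoint to TSS, 6 of 10 had a peak within 1 kb, beside 24.2% of protein-coding genes, and 8 of 10 within 10 kb, beside 28.3%. The genes Vegfc, Flt1, Pdgfa and Pdgfb had at least 2 peaks each, which is 4 of 10 beside 11% of protein-coding genes. The further peaks of Vegfc, Flt1 and Pdgfa lay beyond 10 kb at repeated sequence, and only Pdgfb had a second peak at CG-rich sequence. The 6 genes with a peak within 1 kb were the ligands Vegfb, Vegfc, Pdgfa and Pdgfb and the receptors Flt1 and Flt4. The only peaks of Vegfa and Pdgfra lay 1205 and 1306 bp from the deposited TSS, and that of Pdgfra was at repeated sequence.

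**Figure D1:**
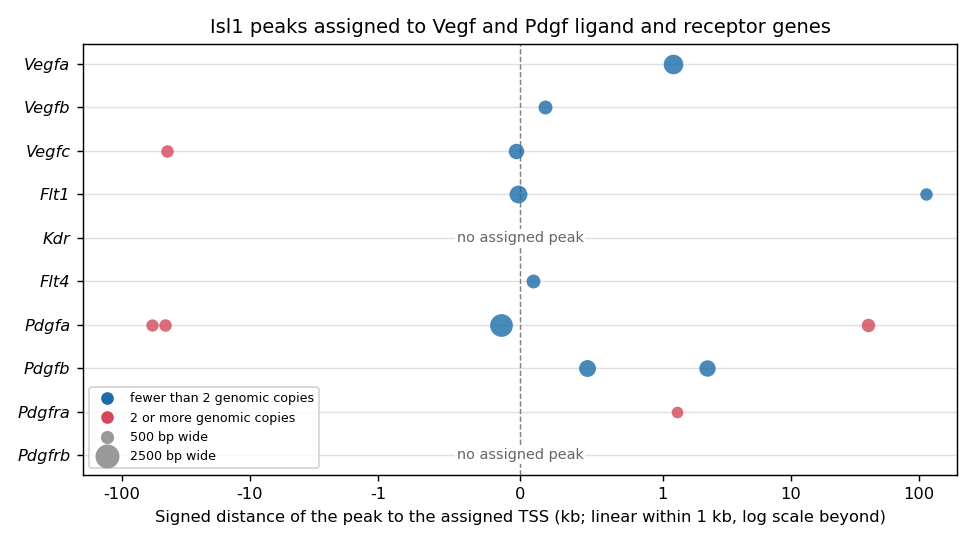
Peaks assigned to the 10 genes by signed distance from the TSS (kb, linear within 1 kb and logarithmic beyond), 1 row per gene, with marker area rising with peak width and colour showing whether the central sequence occurs 2 or more times in the genome. Every gene with a peak had one within 1306 bp of the TSS, the 5 multi-copy peaks belonged to Vegfc, Pdgfa and Pdgfra, and the rows of Kdr and Pdgfrb are empty.

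Vegfa encodes the main growth factor of blood vessel endothelium. Its only peak spanned chr17:46167169-46169073, a width of 1904 bp that was larger than 95.3% of peaks 1 to 10 kb from a TSS. The midpoint lay in an intron, 1205 bp downstream of the TSS used in the list, and the peak began 253 bp downstream of that TSS. The annotation gives Vegfa 4 coding TSSs. The peak covered 2 of them, and its midpoint was 184 bp from the nearest. The peak stood alone on its stretch of chromosome 17, with the next one 216 kb away at Yipf3.

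Vegfb encodes a ligand of Flt1. Its peak at chr19:7061536-7062396 was 860 bp wide, narrower than most peaks within 1 kb of a TSS (percentile 27.9 of that class), and reached from 255 bp upstream to 605 bp downstream of the TSS. Both annotated TSSs lay inside it. The gene sits in a dense neighbourhood: the nearest edge of Dnajc4 is 0.26 kb away, 5 peaks lay within 100 kb of the Vegfb TSS, and the next peak, at Ppp1r14b, was 11.3 kb away. At 83%, the GC content of its central 200 bp was the highest among the 14 peaks.

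Vegfc encodes the ligand of Flt4, which drives growth of lymphatic vessels. Its start-site peak at chr8:55162298-55163409 had its midpoint 33 bp upstream of the TSS, was 1111 bp wide, covered both annotated TSSs and held 20 CG dinucleotides in its central 200 bp. Its other peak, at chr8:55118625-55119273, was centred 43.9 kb upstream in intergenic sequence, was 648 bp wide and held no CG dinucleotide at its centre. The 31-mers of that centre occurred a median of 141.5 times in the genome, and those of the start-site peak once. Vegfc is flanked by wide intervals without protein-coding genes, 438 kb to Neil3 and 364 kb to Asb5.

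Kdr encodes the principal signalling receptor for Vegfa and had no assigned peak. The nearest peak edge was 194 kb from its TSS, farther than for 90.8% of annotated protein-coding genes, whose median was 29.9 kb. That peak (chr5:76568975-76569715) lay 47 bp from the TSS of Srd5a3, a steroid reductase gene on one side of Kdr. On the other side the nearest peak lay at the start of Kit, 402 kb away. The interval between these peaks was 597 kb, longer than 94.8% of the 14061 gaps between neighbouring peaks, and Kdr was the 1 protein-coding gene that lay wholly within it. A peak beyond the caller's cutoff in only 1 replicate would be missing from the list, so weaker occupancy at Kdr was not measured.

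Flt1 had a start-site peak at chr5:148536808-148538355, with its midpoint 17 bp upstream of the TSS. It was 1547 bp wide, larger than 86.5% of peaks within 1 kb of a TSS, and ran from 791 bp upstream to 756 bp downstream. Its central 200 bp held 16 CG dinucleotides, the fewest among the peaks of these genes at CG-rich sequence. The other Flt1 peak, at chr5:148422877-148423519, was 642 bp wide and lay 114 kb downstream of the TSS in a Flt1 intron. By the mm9 annotation the closest coding TSS to it was that of Pan3, at 89733 bp.

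Flt4 encodes the receptor for Vegfc on lymphatic endothelium. Its peak at chr11:49422845-49423696 was 851 bp wide, at percentile 27 of its distance class, with its midpoint 89 bp downstream of the TSS in the list. The annotated TSS was a different one, 80 bp outside the peak and 505 bp from its midpoint. The midpoint lay in untranslated exon sequence of Flt4, and CG island sequence covered the whole peak. On the upstream side the next peak was 265 kb away, beyond 10 olfactory receptor genes, whose family is expressed mainly in the nose.

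**Figure D2:**
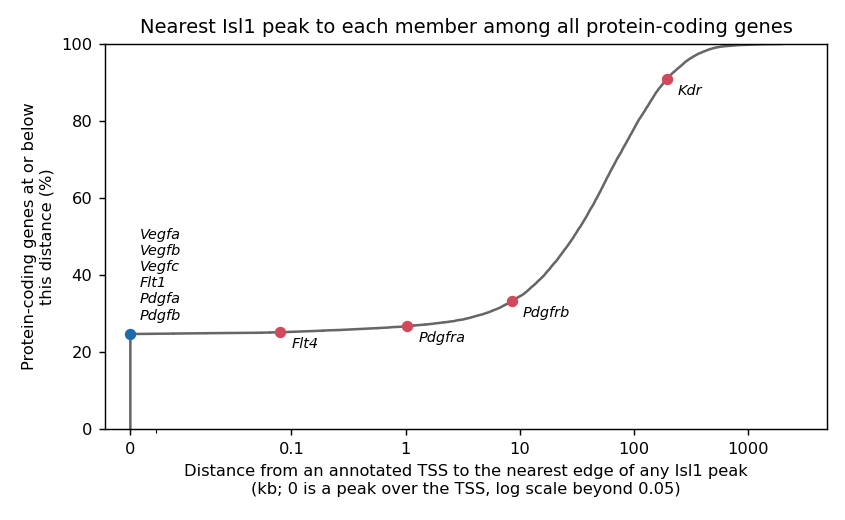
Percentage of annotated protein-coding genes (line) at or below each distance (kb, log scale beyond 0.05) from a TSS to the edge of the nearest Isl1 peak, whichever gene that peak was assigned to, with the 10 genes as points. Kdr stands at 194 kb and Pdgfrb at 8.5 kb, Pdgfra at 1.04 kb and Flt4 at 0.08 kb, and a peak covered a TSS of the other 6 genes.

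Pdgfa encodes the Pdgf A chain, the main ligand of Pdgfra, and had 4 peaks, the most of the 10 genes. The start-site peak at chr5:139469725-139472365 was 2640 bp wide, larger than 99.3% of peaks within 1 kb of a TSS, and reached from 1458 bp upstream to 1182 bp downstream of the TSS. It covered 3 of the 4 annotated coding TSSs of Pdgfa. Its midpoint also lay in a coding exon of the overlapping gene 6330403L08Rik, whose TSS was 35 bp away, so the position of the peak does not separate the genes.

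The remaining Pdgfa peaks lay far from the start site. One was centred 39.8 kb downstream, at chr5:139430700-139431491 in intergenic sequence, where the closest coding TSS of the annotation belonged to Gm17247. The others were centred 45.7 kb and 57.8 kb upstream, at chr5:139516273-139516921 and chr5:139528376-139528997, both in introns of Prkar1b, which encodes a regulatory subunit of protein kinase A. Their widths were 791, 648 and 621 bp and their median copy numbers 14, 2 and 219. Part of their sequence was in common. The downstream peak shared 82 of its 512 different 15-mers (16%) with the nearer upstream peak, on opposite strands, and 82 with the farther one, on the same strand. The upstream peaks shared 81, which is 17.3% of the 467 in the nearer and 21.8% of the 372 in the farther one. No other pair of the 14 peaks shared more than 8.

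Pdgfb encodes the Pdgf B chain, which endothelial cells release to recruit pericytes. Its peaks were both at CG-rich sequence of single copy. One, at chr15:79844086-79845451, was 1365 bp wide and reached from 213 bp upstream to 1152 bp downstream of the single annotated TSS. The other, at chr15:79842381-79843650, was 1269 bp wide with its midpoint 2223 bp into the gene, in an intron. Only 436 bp separated them, so the pair occupied most of the first 2857 bp of Pdgfb, and merging peaks within 1000 bp made them a single peak. The intronic peak lay in the class 1 to 10 kb from a TSS and was wider than 81.9% of it.

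Pdgfra, the receptor for Pdgf A chains, had 1 peak, and it was the narrowest of the 14. It spanned chr5:75553230-75553765, 535 bp, in an intron, with its midpoint 1306 bp and its nearest edge 1039 bp downstream of the TSS. Its central 31-mers occurred a median of 4.5 times, so no single-copy peak was assigned to Pdgfra. Without multi-copy peaks 7 of the 10 genes, with 9 peaks, remained. The next peak, at the homeobox gene Gsx2, was 80.6 kb from it.

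Pdgfrb, the receptor for Pdgf B chains on pericytes and smooth muscle, had no assigned peak. The nearest peak edge was 8503 bp upstream of its TSS, closer than the median gene (percentile 33.2), but that peak was 95 bp from the TSS of Cdx1, a homeobox gene of the intestine and early embryo, and was assigned to it. From there the interval to the next peak was 140 kb and held Pdgfrb and Csf1r, a related receptor gene of macrophages.

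**Figure D3:**
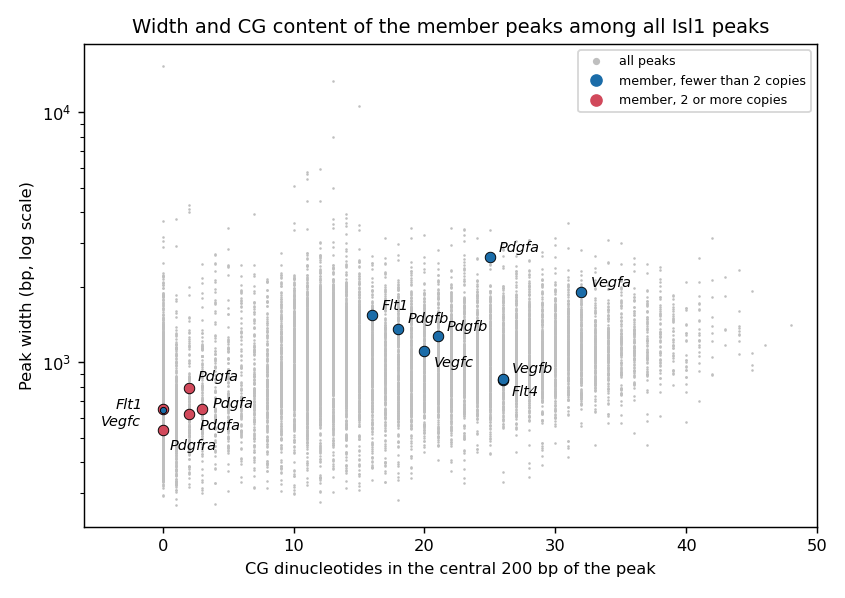
Peak width (bp, log scale) against the number of CG dinucleotides in the central 200 bp, with all 14082 peaks in grey and the 14 peaks of these genes labelled and coloured by copy number. One set spans 16 to 32 CG dinucleotides and 851 to 2640 bp, and the other 0 to 3 CG dinucleotides and 535 to 791 bp. The small Flt1 point (642 bp) is drawn over that of Vegfc (648 bp), both at 0.

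Set side by side, 8 peaks at 7 genes (Vegfa, Vegfb, Vegfc, Flt1, Flt4, Pdgfa and both of Pdgfb) lay on CG-rich sequence at or near a start site, and the other 6 peaks, at Vegfc, Flt1, Pdgfa and Pdgfra, did not. This division was made after the values were seen and was given no test. The first set had widths from 851 to 2640 bp (median 1317), GC contents from 63.5 to 83%, 16 to 32 central CG dinucleotides and a copy number of 1 throughout. CG island sequence, defined as 200-bp windows with at least 50% GC and an observed over expected CG ratio of 0.6, covered from 88.6 to 100% of each. The second set had widths from 535 to 791 bp (median 645), GC contents from 48.5 to 69% and 0 to 3 central CG dinucleotides. Only the Flt1 peak of that set touched an island, over 34% of its length. Over the genome, 70% of peaks beyond 10 kb and 73.3% of those from 1 to 10 kb touched an island. The median numbers of central CG dinucleotides in these classes were 11 and 12. The sets were divided by CG-rich sequence, so their separation in CG dinucleotides follows from the division. They did not overlap in width either, although their GC contents did. Over all peaks the widths did overlap between distance classes. Their quartiles were 835 and 1313 bp within 1 kb of a TSS, and 649 and 1194 bp beyond 10 kb. Beyond 10 kb, multi-copy peaks were wider than single-copy ones, with medians of 926 and 690 bp. The order was the other way from 1 to 10 kb (774 and 851.5 bp) and within 1 kb (882 and 1054 bp).

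Tandem repetition was measured in the central 200 bp as the largest share of bases equal to the base a fixed period of 1 to 100 bp further along, a longer period being taken only where it gained over 2 percentage points, and a share of at least 70% was called tandem. The 8 CG-rich peaks had shares from 32.8 to 49.4%. The other 6 ranged from 65.2 to 92.5%, and 5 of them were called tandem. The best period was 2 bp at Vegfc (87.9%), 4 bp at Pdgfra (84.2%) and 6 bp in the Flt1 intron (70.6%), and 53 and 52 bp at the upstream Pdgfa peaks (92.5 and 81.1%). The Flt1 share was just above the threshold, and the downstream Pdgfa peak (65.2% at 65 bp) was just below it. The copy threshold of 2 likewise divided an upstream Pdgfa peak at 2 from the Flt1 intronic peak at 1.5.

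**Figure D4:**
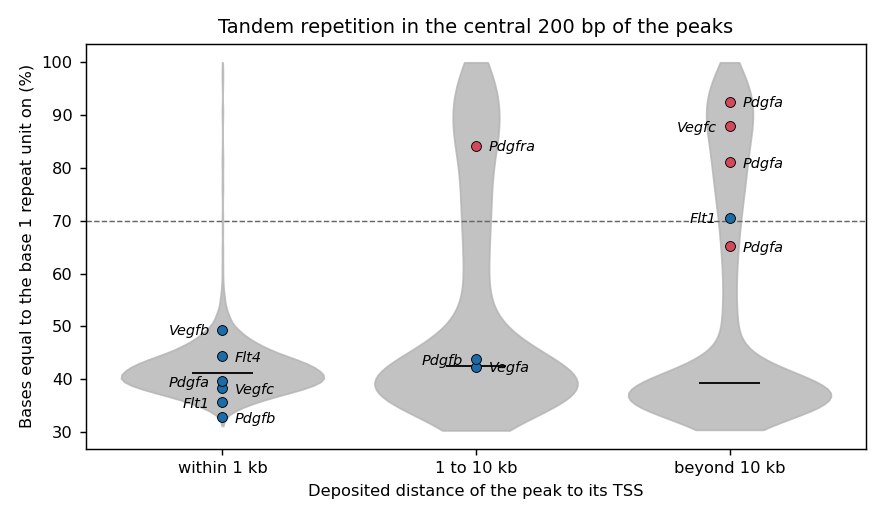
Share of bases (%) in the central 200 bp that equal the base 1 repeat unit further on, by distance of the peak to its TSS, with the distribution of all peaks in grey, its median as a short bar, the 14 peaks as points (blue fewer than 2 and red 2 or more genomic copies) and the 70% threshold dashed. The 8 CG-rich peaks sit between 32.8 and 49.4%, and the other 6 between 65.2 and 92.5%.

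Peaks of the same distance class across the genome gave the background for these values. Of the 5416 peaks within 1 kb of a TSS, 2.57% were multi-copy and 0.997% tandem, and their median width was 1050 bp and median CG number 25, beside 0 multi-copy and 0 tandem among the 6 such peaks of these genes. Of the 1473 peaks from 1 to 10 kb, 38.4% were multi-copy and 25% tandem, beside 1 and 1 of the 3 here, the Pdgfra peak in both counts. Of the 7193 beyond 10 kb, 81.2% were multi-copy and 29.9% tandem, beside 4 and 4 of the 5 such peaks here. These shares describe where the peaks lay, and whether repeated sequence affected the placement of reads at the Vegfc, Flt1, Pdgfa and Pdgfra repeats was not tested.

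Strings known for homeodomain and GATA factors were searched for in the central 200 bp, on either strand. TAAT was present in 2 of the 14 peaks, in the introns of Flt1 and Pdgfb, beside 19.4% of all peaks. The longer strings CTAATTG and CTAATGG, of the LIM-homeodomain type, were in none of the 14, beside 0.192% and 0.22% of all peaks, and GATAA was in none, beside 3.39%. Over whole peaks, TAAT stood in 9 of the 14, beside 73.8% of all peaks. It was found 5 times in the Flt1 intronic peak, whose centre was called tandem at a period of 6 bp. The upstream Vegfc repeat held it 2 times and 2 distal Pdgfa peaks once each. Among the CG-rich peaks it stood 2 times each in the start-site peaks of Vegfc, Flt1 and Pdgfa and in the intronic Pdgfb peak, and once at Vegfa. It was not in the peaks of Vegfb, Flt4 and Pdgfra, the Pdgfb start-site peak or the farthest upstream Pdgfa peak. Of all peaks within 1 kb of a TSS, 59.9% held TAAT somewhere along their length, and so did 3 of the 6 of these genes. A match says only that the letters occur, and no factor's binding to them was measured.

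Promoter CG content was compared with the presence of a start-site peak, over the 10 genes and over genes at large. For each gene, CG dinucleotides were counted within 500 bp of an annotated coding TSS, and the TSS with the most was used. The number was 122 at Pdgfa, 116 at Vegfa, 102 at Vegfc, 100 at Flt1 and 86 at Vegfb, all in the highest quartile of protein-coding genes. Kdr and Pdgfb had 61 each, Pdgfra 60 and Flt4 53, in the third quartile, and Pdgfrb 31, in the second. The median over all annotated protein-coding genes was 46. By the annotated TSSs, a peak midpoint lay within 1 kb for 7 of the 10 genes, beside 26.1% of the 22219 annotated protein-coding genes; this adds Vegfa to the 6 counted by deposited distance. In the highest quartile 5 of 5 members had such a peak, beside 72.9% of genes there. In the third quartile Pdgfb and Flt4 had one and Kdr and Pdgfra did not, 2 of 4 beside 27%. In the second quartile Pdgfrb had none, beside 3.71%.

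**Figure D5:**
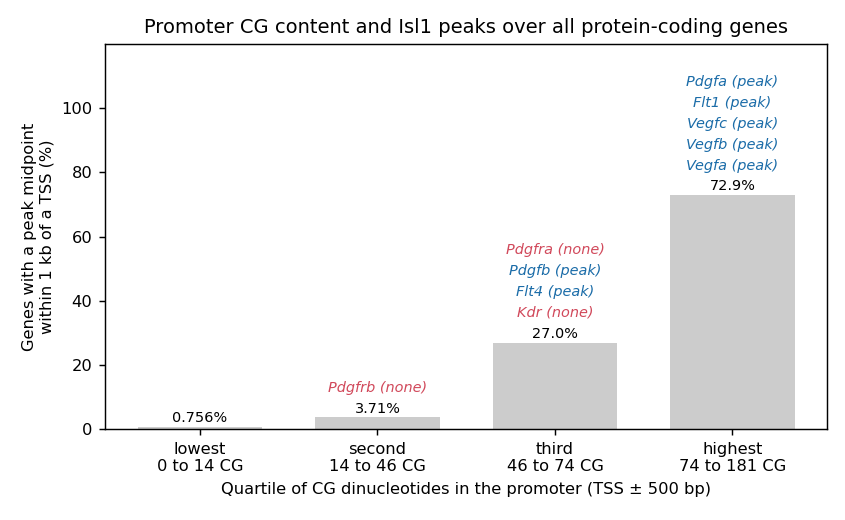
Share (%) of annotated protein-coding genes with a peak midpoint within 1 kb of a TSS, by quartile of promoter CG number from lowest to highest, with the 10 genes named above their quartile. The bars rise from 0.756% through 3.71% and 27% to 72.9%, and the 5 genes in the highest quartile all had such a peak.

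Kdr and Pdgfb had the same number of promoter CG dinucleotides and differed in occupancy, with a pair of peaks at Pdgfb and none within 100 kb of Kdr. Pdgfra, with 60, had only the intronic repeat of C and T, and Flt4, with 53, had a peak fully inside an island. Among the ligands, all 5 of those examined had a start-site peak by the annotated TSSs. Among the 5 receptors, Flt1 and Flt4 had one. Vegfa, Vegfb, Vegfc and Pdgfa, and Flt1 alone of the receptors, were in the highest promoter quartile, where 72.9% of all genes had such a peak. The share was 27% in the third quartile, with Pdgfb, Flt4, Kdr and Pdgfra, and 3.71% in the second, with Pdgfrb. Of the 4 other ligand genes of the family, described below, 0 had a peak within 1 kb. A peak covered a TSS at 6 of the 10 genes, beside 24.7% of annotated protein-coding genes.

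Beyond the 10 genes, 83 further genes of the pathways were listed from general knowledge. Of these, 59 (71.1%) had an assigned peak and 41 (49.4%) had one within 1 kb, to be read beside the 39.1% and 24.2% of all protein-coding genes. For 13 of the 59 every assigned peak was multi-copy, beside 26.4% of the protein-coding genes with a peak. By promoter quartile, a peak midpoint lay within 1 kb for 35 of 44 genes in the highest (79.5%), 7 of 17 in the third (41.2%), 1 of 19 in the second (5.26%) and 0 of 3 in the lowest.

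Of the other ligand genes of the family, Pgf, Vegfd, Pdgfc and Pdgfd, 3 had a peak, 0 within 1 kb, and all 4 of their peaks were multi-copy, beside 81.2% of all peaks beyond 10 kb. None of these genes was in the highest promoter quartile, and in the lower 3 quartiles 0.756, 3.71 and 27% of all genes had a peak midpoint within 1 kb of an annotated TSS. The Vegfd peak, 16.1 kb upstream of this second lymphatic growth factor, had a median copy number of 2550. Pdgfc, a ligand of Pdgfra, had peaks 153 and 223 kb downstream of its TSS, and the Pdgfd peak lay 234 kb upstream. Pgf, the placental ligand of Flt1, had none.

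Among related receptor tyrosine kinases, 6 of 8 had a peak (75%) and 5 had one within 1 kb (62.5%). Of all protein-coding genes 39.1% and 24.2% did. The nearest were at Met, 158 bp upstream of the TSS, and at Flt3, Kit and Fgfr1, 258, 318 and 401 bp downstream. Kit, next to Kdr and Pdgfra on chromosome 5, thus had a start-site peak that its neighbours lacked. Of 7 coreceptor genes 4 had a peak (57.1%), and Gpc1 and Lrp1 had one within 1 kb (28.6%). The latter share was close to the 24.2% of protein-coding genes.

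Of 38 genes that carry the signal inside the cell, 27 (71.1%) had a peak within 1 kb by the deposited distance. In this list 30 genes were in the highest promoter quartile, and by the annotated TSSs 26 of these 30 had a peak midpoint within 1 kb, beside 72.9% of all genes in that quartile. Among the nearest peaks were those of the Pi3-kinase subunit gene Pik3r2, the Erk gene Mapk3 and the Src-family kinase gene Yes1. Of 7 genes of oxygen sensing, which regulate Vegfa, Hif1a and Vhl had a peak within 1 kb and 4 had any. These shares, 28.6% and 57.1%, stand beside 24.2% and 39.1% of protein-coding genes. Of 19 regulators and markers of endothelial and mural cells 13 had a peak (68.4%, beside 39.1% of protein-coding genes). For 6 of the 13 every peak was multi-copy. Within 1 kb it was 5 of 19 (26.3%), close to the 24.2% of protein-coding genes. By the annotated TSSs, 4 of 6 in the highest promoter quartile had one within 1 kb (66.7%, beside 72.9% of all genes there). In the third quartile 1 of 4 did, and in the second 0 of 9, beside 27% and 3.71%. Ets1, Lmo2, Wt1 and Sox18, all transcriptional regulators of blood vessel or epicardial development, were nearest, at 7 bp upstream and at 156, 370 and 546 bp downstream.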

How the data were processed

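Day 5 CPCs gave 2 Isl1 ChIP replicates and 1 input. Per the methods of the study and the submitters' processing notes, the authors aligned reads to mm9 with Bowtie2, removed duplicates with Picard 1.136, called peaks with MACS without a fragment model, dropped blacklisted regions and kept areas common to both replicates with bedtools 2.15. The deposited values are positions in bp, signed distances to the TSS in bp, accessions and gene symbols. They hold no score, depth or replicate value, so a peak that missed the cutoff of the caller in 1 replicate is not seen and strength is unknown.

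Of 14165 lines, 83 repeats were dropped. Groups came from the sample titles. Sequence and TSSs came from NCBI m37 (mm9) with its GENCODE annotation, computed with Python 3.11.15, numpy 2.4.6 and pandas 2.3.3. The background was genes with a curated messenger RNA in the RefSeq table of GRCm38.p6, used for names only; 8 of 9313 names in the list were unmatched, and 869 protein-coding genes without such an accession were left out. Copy number is the median genomic count of 31-mers in the central 200 bp, checked on simulated sequence, with at least 2 called multi-copy. Starts are uncertain by 1 bp. Named genes are the 10 members, the genes at their nearest peaks, their neighbours, and at most 4 nearest genes per pathway list. Members and lists were chosen with earlier results of these data known. The tandem share, shared 15-mers, promoter CG quartiles, the share of genes with multi-copy peaks alone and gaps were chosen after values were seen. Alternative widths, distances, merging, assignment and backgrounds were tried. The central sequence of 1 member peak and the values of 1 pathway gene are not reported here.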

Additional observations from a re-analysis of the deposited data

How the results depend on the processing

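Of 44 values recomputed for 8 results, 37 stayed within their limits (within 1.5 times for a count, and within the spread or interval for a median or share) and 7 moved. With single-copy peaks only, the member peaks fell from 14 to 9 and the share of protein-coding genes with a peak from 39.1 to 28.7%, while 7 members kept a peak. With at least 2 assigned peaks required, 4 members, 17 of the 83 pathway genes and 11% of protein-coding genes remained. The share was 38% with peaks of at least 500 bp and 18.6% over every gene of the name table. With the closest coding TSS of the annotation, 11 member peaks at 8 members remained. The start-site peak of Pdgfa then went to 6330403L08Rik, and Pdgfa kept only its upstream peaks at repeated sequence. Members with a peak within 10 kb fell from 8 to 7. The depth of the libraries is unknown. No result could be recomputed without either replicate, whose peaks are given only as 1 combined list. No paired analysis was possible because the list holds no value per replicate and no result comes from a test.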
